A study of Mus musculus with 15 samples.

Results

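The nuclear-encoded genes of oxidative phosphorylation were described in whole lungs of mice with ovalbumin-induced allergic airway disease, with and without an antibody against the IL-4 receptor. They were taken by symbol: every row of the count table beginning Nduf (a, b, c, s or v), Sdha to Sdhd, Uqcr, Cox4 to Cox8 or Atp5 entered, which gave 92 symbols. The 7 Ndufaf assembly factors and the muscle isoforms Cox6a2 and Cox8b were left out by the rule, so 83 of the 24054 symbols in the table were members. By the subunits they encode, 36 belonged to complex I, 4 to complex II, 8 to complex III, 18 to complex IV and 16 to complex V. Ndufa4 and Ndufa4l2 were counted with complex IV, where the Ndufa4 protein is known to sit, and Atp5sl was kept apart because its protein is known as a complex I assembly factor and not as an ATP synthase subunit. After a filter on low counts 81 members were tested. Cox7b2 and Cox8c, isoforms known from testis, had 0 counts in all 15 libraries and were not tested.

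Oxidative phosphorylation takes place at the inner mitochondrial membrane. Complexes I and II pass electrons from NADH and succinate to ubiquinone, complex III passes them to cytochrome c, and complex IV hands them to oxygen. Complexes I, III and IV pump protons as they do so, and complex V, the ATP synthase, lets the protons return and makes ATP. Most subunits are encoded in the nucleus, and a few of the complex IV subunits exist as isoforms that differ between tissues. In the lung Cox4i2, an isoform of the regulatory subunit 4, is known to be well expressed and to have a part in oxygen sensing. The subunits encoded in mitochondrial DNA are not analysed here.

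The animals were female Balb mice, labelled wild type, with 5 animals in each of 3 groups. One group was sensitised by intraperitoneal ovalbumin (OVA), challenged with nebulised OVA and received 30 mg/kg of a monoclonal antibody that targets mouse IL-4Ra (OVA + aIL4Ra). Another had the same OVA sensitisation and challenge with an isotype control antibody (OVA + isotype), and the last was sham-sensitised with saline and given the isotype control (saline + isotype). The receptors of IL-4 and IL-13 both contain IL-4Ra. The sources used here give neither ages nor dosing times. Values are CPM (counts scaled to a common, TMM-adjusted library total), given for replicates 1 to 5 of a group in that order. Genes with an adjusted p below 0.05 were called (edgeR's quasi-likelihood test on expected counts, Benjamini-Hochberg adjustment over all 15905 genes tested), and values given with ± in parentheses beside an adjusted p are log2 fold changes with their SE.

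The libraries held 12317805 to 16914475 expected counts with OVA + aIL4Ra, 10042825 to 14706131 with OVA + isotype and 16774285 to 27570666 with saline + isotype. Lung markers were present in each library, with 6658 to 19786 summed CPM of 9 alveolar type 2 cell genes. Several other signals differed among the libraries. Rn45s, the ribosomal RNA precursor, took 1.65 to 12.4% of the counts in OVA + aIL4Ra lungs, 4.31 to 12.4% in OVA + isotype lungs and 1.19 to 2.88% in saline + isotype lungs. The summed CPM of 13 cardiac muscle markers ran from 137.4 to 636 in OVA + aIL4Ra lungs, from 221.3 to 2101 in OVA + isotype lungs and from 805.2 to 2394 in saline + isotype lungs. Adipose markers stood apart in single libraries, with 725 summed CPM in OVA + aIL4Ra replicate 4, 384.4 in OVA + isotype replicate 1 and 1780.4 in saline + isotype replicate 1, and 6.03 to 286.3 in the other 12. In OVA + isotype against saline + isotype lungs, 11 of 12 endothelial, 7 of 8 alveolar type 1 and 6 of 7 club cell markers fell. Of 9 alveolar type 2 markers 6 fell and 1 rose, and of 10 alveolar macrophage markers 4 fell and 3 rose. Meanwhile 7 of 10 leukocyte and 9 of 10 cell division genes rose. Over all genes tested 19.3% were called higher and 17.8% lower. In whole lung, fewer cells of a type and less RNA per cell cannot be told apart. The members together took 0.376 to 0.565% of all counts, and their summed CPM averaged 4584 ± 334.3 with OVA + aIL4Ra, 4856 ± 599.4 with OVA + isotype and 5007 ± 516.8 with saline + isotype (SD, n = 5 each).

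Promoters of the members are shown first, because genes of the respiratory chain are known to share binding sites for the nuclear respiratory factors NRF1 and GABP. RefSeq's promoter table (GRCm38.p6) held an entry for 66 of the 83 members, and the 200 bases before the annotated start were searched on both strands. The palindromic NRF1 consensus was found in 4 of 66 members (6.06%), which were Atp5g2, Atp5k, Cox6a1 and Ndufa11, and in 0.821% of all 27025 genes in the table. Its variant, with the central T replaced by C and visible in capitals in the Ndufb4 sequence, was found in Atp5c1, Ndufb4 and Sdhd (4.55%, against 1.2% of all genes). The ETS letters CCGGAAG, which GABP is known to bind, were found in 10 members (15.2%, against 7.15% of all genes). The Sp1 box GGGCGG was found in 34.8% of the members and 33.7% of all genes, and CCAAT in 36.4% and 32.7%. The letters AAGATGGC of the factor YY1 were found in 1.52% of the members and 1.4% of all genes, and TCAAGGTCA of the estrogen-related receptors in 1.52% and 0.307%. No motif searched contains the letters of another, and matches were counted whether or not they share bases. The called member with the largest rise in complexes III, IV and V (Uqcrh, Cox5a and Atp5e) and the one with the largest fall in complex I (Ndufb4) are printed 5′ to 3′ on the gene's strand, from 200 bases before the start to the base before it. Capitals mark the matches.
Uqcrh, chr4:116075071-116075270, minus strand: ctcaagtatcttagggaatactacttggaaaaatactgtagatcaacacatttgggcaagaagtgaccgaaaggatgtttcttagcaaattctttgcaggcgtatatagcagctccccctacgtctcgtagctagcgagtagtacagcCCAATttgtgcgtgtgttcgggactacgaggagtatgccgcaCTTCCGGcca
Cox5a, chr9:57521032-57521231, plus strand: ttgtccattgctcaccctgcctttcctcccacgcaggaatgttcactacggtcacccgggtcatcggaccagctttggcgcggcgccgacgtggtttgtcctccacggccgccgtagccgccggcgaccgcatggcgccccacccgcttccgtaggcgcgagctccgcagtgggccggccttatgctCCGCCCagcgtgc
Atp5e, chr2:174464102-174464301, minus strand: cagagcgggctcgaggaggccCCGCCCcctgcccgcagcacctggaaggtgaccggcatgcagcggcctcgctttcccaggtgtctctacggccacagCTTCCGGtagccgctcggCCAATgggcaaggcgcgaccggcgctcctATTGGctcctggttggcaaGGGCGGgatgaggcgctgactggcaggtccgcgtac
Ndufb4, chr16:37654369-37654568, minus strand: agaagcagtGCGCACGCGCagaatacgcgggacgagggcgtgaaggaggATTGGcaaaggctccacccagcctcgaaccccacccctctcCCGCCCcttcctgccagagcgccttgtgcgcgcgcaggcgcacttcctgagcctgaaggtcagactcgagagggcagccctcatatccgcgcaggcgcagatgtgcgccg
In the Uqcrh sequence the ETS letters CTTCCGG (the reverse strand of CCGGAAG) begin 10 bases before the start and CCAAT 52 bases before it. The Atp5e sequence holds the ETS letters 102 bases before the start, Sp1 boxes at 179 and 36 bases, and CCAAT boxes on opposite strands at 84 and 55 bases. Cox5a holds a single Sp1 box (as CCGCCC), at 13 bases. Ndufb4 holds the NRF1 variant at 191 bases, with CCAAT (as ATTGG) at 151 and an Sp1 box at 110. The 10 members with the ETS letters were Atp5e, Atp5h, Atp5j, Cox6a1, Cox6b1, Ndufb7, Ndufs3, Sdhd, Uqcr11 and Uqcrh.

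The comparison of OVA + isotype with saline + isotype lungs asks what the asthma model changes. The respiratory chain genes moved little: 13 of 81 tested members were called, 7 higher and 6 lower, where 37.1% of all genes tested were called (19.3% higher and 17.8% lower). The members' median log2 fold change was -0.13 against 0.02 for all genes tested, with 24 members positive and 57 negative. Groups did not overlap for 3 members that were higher and 5 that were lower, against 12.1% and 14.5% of all genes. Before adjustment, 9 members were higher and 15 lower at a p below 0.05, against 24.3% and 22.4% of all genes. For 72 of 81 members (88.9%, against 62.1% of all genes) the 95% interval of the log2 fold change lay between -1 and 1, so a change of 2-fold or more lay outside it. With the Rn45s share as a covariate, 0 members were called (before adjustment, 5 higher and 8 lower members had a p below 0.05), when 486 genes were called higher and 266 lower among all tested. The Rn45s share of every OVA + isotype library was above that of every saline + isotype library. The count was 25 (6 higher, 19 lower) without OVA + isotype replicate 3, and 9 to 18 without any other single library.

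By complex, the medians were -0.15 for complex I, -0.07 for complex II, -0.11 for complex III, -0.25 for complex IV and -0.01 for complex V. Complex I had 2 called members higher and 3 lower among 36, and complex III had 1 higher among 8. Complex IV had 1 higher and 3 lower among 16 tested, and complex V had 2 higher among 16. In complex II 0 of 4 were called. In this grouping the called changes of complex I, III and V stayed under 2-fold, and the 3 called falls past 2-fold were all in complex IV isoform genes. Ndufs5 of complex I fell 2.07-fold and was not called. Grouped by symbol start alone, which puts Ndufa4 and Ndufa4l2 in complex I, the medians were -0.20 for complex I and -0.21 for complex IV. Complex I then had 4 called lower, with the largest fall, that of Ndufa4l2 (-1.55), among them, and complex IV had 2 called lower. The summed CPM of each complex overlapped between the groups: complex I had 1264 ± 146.4 in OVA + isotype lungs and 1370 ± 124.7 in saline + isotype lungs, and complex IV had 920.2 ± 163.6 in OVA + isotype lungs and 1004 ± 88.8 in saline + isotype lungs (SD, n = 5 each).

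**Figure D1:**
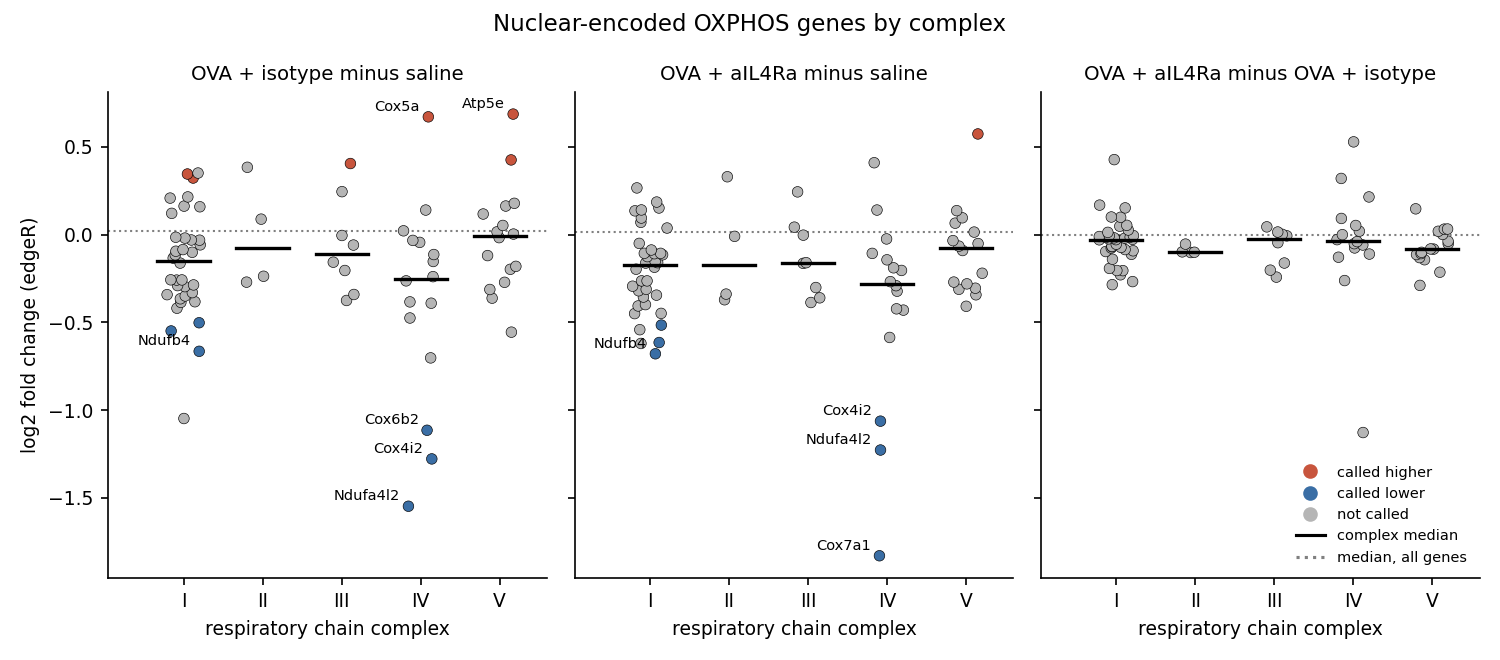
Log2 fold change (edgeR) of each tested member, by respiratory chain complex, in the 3 comparisons; red points were called higher, blue points lower and grey points not called, black bars are the medians of the complexes and the dotted line is the median of all genes tested. Most points lie within 0.5 of 0, and the falls past 1 that were called are Ndufa4l2, Cox4i2, Cox6b2 and Cox7a1, all placed in complex IV.

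Of the core subunits of complex I, which carry the electrons, Ndufv1, Ndufs1, Ndufs7 and Ndufs8 were not called, while Ndufv2 rose and is described with the other called genes. Ndufv1, the flavoprotein that takes electrons from NADH, had 59.95, 63, 65.1, 53.2 and 66.8 CPM in OVA + isotype lungs, against 82.1, 61.9, 70.1, 63.8 and 59.97 CPM in saline + isotype lungs (-0.13 ± 0.13, adjusted p = 0.435). Ndufs1, the large iron-sulfur subunit, had 97.2, 91.2, 80.9, 83.8 and 82.6 CPM in OVA + isotype lungs, against 111.3, 72.8, 61.3, 68.4 and 76.2 CPM in saline + isotype lungs (0.16 ± 0.14, adjusted p = 0.395). The groups overlapped for both genes, and saline + isotype replicate 1 was the highest library for each; without it Ndufs1 was called higher (0.32, adjusted p = 0.0395). Ndufs7 and Ndufs8, which carry the last iron-sulfur clusters before ubiquinone, gave -0.33 ± 0.15 (adjusted p = 0.0995) and -0.29 ± 0.21 (adjusted p = 0.291). The accessory subunits Ndufs4, Ndufa9, Ndufb8 and Ndufa13 gave -0.26 ± 0.17, -0.29 ± 0.14, -0.26 ± 0.16 and -0.08 ± 0.19, and none was called. Ndufs7 was called lower without OVA + isotype replicate 3 (-0.48, adjusted p = 0.0201) or OVA + aIL4Ra replicate 4 (-0.37, adjusted p = 0.0347), and Ndufa9 without OVA + isotype replicate 3 (-0.41, adjusted p = 0.0342). Ndufs5, an accessory subunit of the membrane arm, spread most among the complex I genes and was not called. It had 5.53, 11.2, 24.6, 11.7 and 4.102 CPM in OVA + isotype lungs, against 24.3, 15.7, 29.4, 20.4 and 29.3 CPM in saline + isotype lungs (-1.05 ± 0.48, adjusted p = 0.0972).

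Of the 36 complex I genes 5 were called, and they went both ways. Ndufb5, an accessory subunit of the membrane arm, had 45.6, 46.4, 45.3, 39.7 and 41.6 CPM in OVA + isotype lungs, against 38.1, 33.6, 32.6, 32.5 and 35.2 CPM in saline + isotype lungs. All OVA + isotype libraries lay above all saline + isotype libraries, and the rise was 1.27-fold (0.35 ± 0.08, adjusted p = 0.00454). Ndufv2, an iron-sulfur partner of Ndufv1, had 72.7, 74.1, 66.9, 66.5 and 59.1 CPM in OVA + isotype lungs, against 63.95, 48.6, 51.03, 55.97 and 51.7 CPM in saline + isotype lungs and rose 1.25-fold (0.32 ± 0.11, adjusted p = 0.0281). Its groups overlapped through OVA + isotype replicate 5 and saline + isotype replicate 1. Ndufb4, of the membrane arm, had 25.8, 22.6, 27.96, 25.99 and 10.7 CPM in OVA + isotype lungs, against 36.5, 35.3, 38.7, 32.6 and 36.5 CPM in saline + isotype lungs. The groups did not overlap, OVA + isotype replicate 5 was the lowest, and the gene fell 1.58-fold (-0.66 ± 0.24, adjusted p = 0.0367). Ndufa8, also of the membrane arm, had 20.99, 25.6, 29.5, 22.5 and 13.02 CPM in OVA + isotype lungs, against 37.6, 32.2, 35.5, 28.5 and 29.7 CPM in saline + isotype lungs and fell 1.46-fold (-0.55 ± 0.17, adjusted p = 0.0213). Ndufa7, an accessory subunit of the matrix arm, had 30.5, 29.6, 37.1, 30.9 and 24 CPM in OVA + isotype lungs, against 36.8, 39.8, 57.6, 41.9 and 39.4 CPM in saline + isotype lungs and fell 1.42-fold (-0.50 ± 0.17, adjusted p = 0.0289). For Ndufa8 and Ndufa7 a single OVA library reached into the saline range. With the Rn45s share as a covariate Ndufb4 gave -0.02 ± 0.25 and Ndufa7 -0.16 ± 0.21 (adjusted p = 0.965 and 0.676).

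Of these 5 calls, that of Ndufb5 remained when each of the 15 libraries was left out in turn. The call of Ndufa8 was lost without saline + isotype replicate 1 (-0.50, adjusted p = 0.0537). That of Ndufa7 was lost without OVA + isotype replicate 1, 2 or 5 or saline + isotype replicate 3 (-0.50 to -0.38, adjusted p = 0.0534 to 0.0845). That of Ndufb4 was lost without OVA + isotype replicate 2 or 5 or saline + isotype replicate 1, 3 or 5 (-0.66 to -0.49, adjusted p = 0.0595 to 0.0658). That of Ndufv2 was lost without OVA + aIL4Ra replicate 1, any of OVA + isotype replicates 1 to 4, or saline + isotype replicate 2, 3 or 5 (0.24 to 0.30, adjusted p = 0.0619 to 0.13). RSEM divides reads among similar sequences, and many genes of this family have processed copies elsewhere in the genome, so small differences of single subunits are uncertain where reads were split; this was not tested.

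Complex II, succinate dehydrogenase, was also not called, and its 4 subunits did not share a direction. Sdha, the flavoprotein that oxidises succinate, had 159.8, 153.4, 161.5, 158.8 and 123.4 CPM in OVA + isotype lungs, against 265.1, 176.3, 147.9, 146 and 177.8 CPM in saline + isotype lungs (-0.27 ± 0.14, adjusted p = 0.152). Sdhb, the iron-sulfur subunit, had 48.9, 51.3, 52.96, 48.8 and 29.9 CPM in OVA + isotype lungs, against 74.3, 50.7, 49.3, 46.3 and 53.01 CPM in saline + isotype lungs (-0.24 ± 0.16, adjusted p = 0.262). For both, saline + isotype replicate 1 stood above and OVA + isotype replicate 5 below the other libraries. Of the membrane anchors, Sdhc gave 0.09 ± 0.11 (adjusted p = 0.536), and Sdhd, with 78.6, 62.7, 63.6, 72.02 and 53.7 CPM in OVA + isotype lungs, against 61.99, 53.1, 41.4, 47.6 and 49.2 CPM in saline + isotype lungs, gave 0.38 ± 0.15 (adjusted p = 0.0537). Sdhd was called higher without OVA + aIL4Ra replicate 4, OVA + isotype replicate 5 or saline + isotype replicate 1 (0.34, 0.45 and 0.47, adjusted p = 0.0398, 0.0344 and 0.0332).

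In complex III the hinge protein gene Uqcrh was called among 8. It had 107.4, 111.9, 110.4, 107 and 111.7 CPM in OVA + isotype lungs, against 83.5, 75.03, 94.1, 85.7 and 75.7 CPM in saline + isotype lungs, so all OVA + isotype libraries lay above all saline libraries, and their spread was narrow. The rise was 1.32-fold (0.41 ± 0.09, adjusted p = 0.00277), and the call remained without each library in turn. Uqcrc1 and Uqcrc2, the core subunits, gave -0.16 ± 0.15 and -0.34 ± 0.16 (adjusted p = 0.424 and 0.116). Uqcrfs1, the Rieske iron-sulfur protein, gave 0.25 ± 0.12 (adjusted p = 0.129), and was called higher without saline + isotype replicate 1 (0.37, adjusted p = 0.0161). The small subunits Uqcrb and Uqcrq gave -0.06 ± 0.22 and -0.00 ± 0.17, and neither was called.

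The largest falls among all members were in 3 complex IV isoform genes. Ndufa4l2, the isoform of Ndufa4 that is known as a target of the hypoxia-inducible factor HIF-1, had 3.64, 4.13, 8.38, 6.57 and 3.28 CPM in OVA + isotype lungs, against 13.96, 12.8, 18.8, 14.9 and 16.2 CPM in saline + isotype lungs. The lowest saline library lay above the highest OVA library, and the fall was 2.92-fold (-1.55 ± 0.30, adjusted p = 0.00128). Cox4i2 had 10.2, 9.18, 18.7, 16.9 and 12.4 CPM in OVA + isotype lungs, against 29.8, 26.8, 43.9, 28.5 and 34.8 CPM in saline + isotype lungs, again without overlap, and fell 2.42-fold (-1.28 ± 0.21, adjusted p = 0.000433). Cox6b2, an isoform known from testis and measured here at a few CPM, had 2.05, 1.24, 3.78, 2.12 and 2.77 CPM in OVA + isotype lungs, against 4.52, 4.69, 5.91, 6.32 and 4.58 CPM in saline + isotype lungs. All OVA + isotype libraries lay below all saline + isotype libraries, and the gene fell 2.17-fold (-1.11 ± 0.26, adjusted p = 0.00411). These calls remained without each of the 15 libraries in turn. With the Rn45s share as a covariate they were lost, at -0.95 ± 0.37 for Ndufa4l2, -0.95 ± 0.28 for Cox4i2 and -0.91 ± 0.38 for Cox6b2 (adjusted p = 0.133, 0.0666 and 0.155). With the cardiac score as a covariate the values were -1.54 ± 0.31, -1.29 ± 0.22 and -1.13 ± 0.27, and all remained called.

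Cox4i2 and Ndufa4l2 are known to be expressed in lung pericytes and vascular smooth muscle, so markers of these cells are given beside them. Of 15 tested, 5 fell: Pdgfrb (-1.14 ± 0.16), Notch3 (-1.09 ± 0.16), Gucy1a3 (-1.02 ± 0.24), Kcnj8 (-0.88 ± 0.26) and Cspg4 (-0.73 ± 0.20), and 10 were not called (median of the list -0.20), where 17.8% of all genes were called lower. The list split in direction, with 9 markers negative and 6 positive, the highest at 1.25. At an unadjusted p under 0.05 in edgeR, 2 were higher and 6 lower. Pdgfrb, the marker with the largest fall in this list, averaged 91.3 ± 16.2 CPM in OVA + isotype lungs and 200.5 ± 30.4 CPM in saline + isotype lungs (SD, n = 5 each). The summed CPM of the list ran from 1216.4 to 2186.2 in OVA + isotype lungs and from 1536.4 to 1961.5 in saline + isotype lungs, and no marker of the list was at 0 in a group. Markers of other cells fell in the same comparison, with 11 of 12 endothelial (median -0.93) and 7 of 8 alveolar type 1 genes (median -1.23). Of the leukocyte genes 7 of 10 rose. The part of any of these cell types in the fall of Cox4i2 and Ndufa4l2 was not tested.

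**Figure D2:**
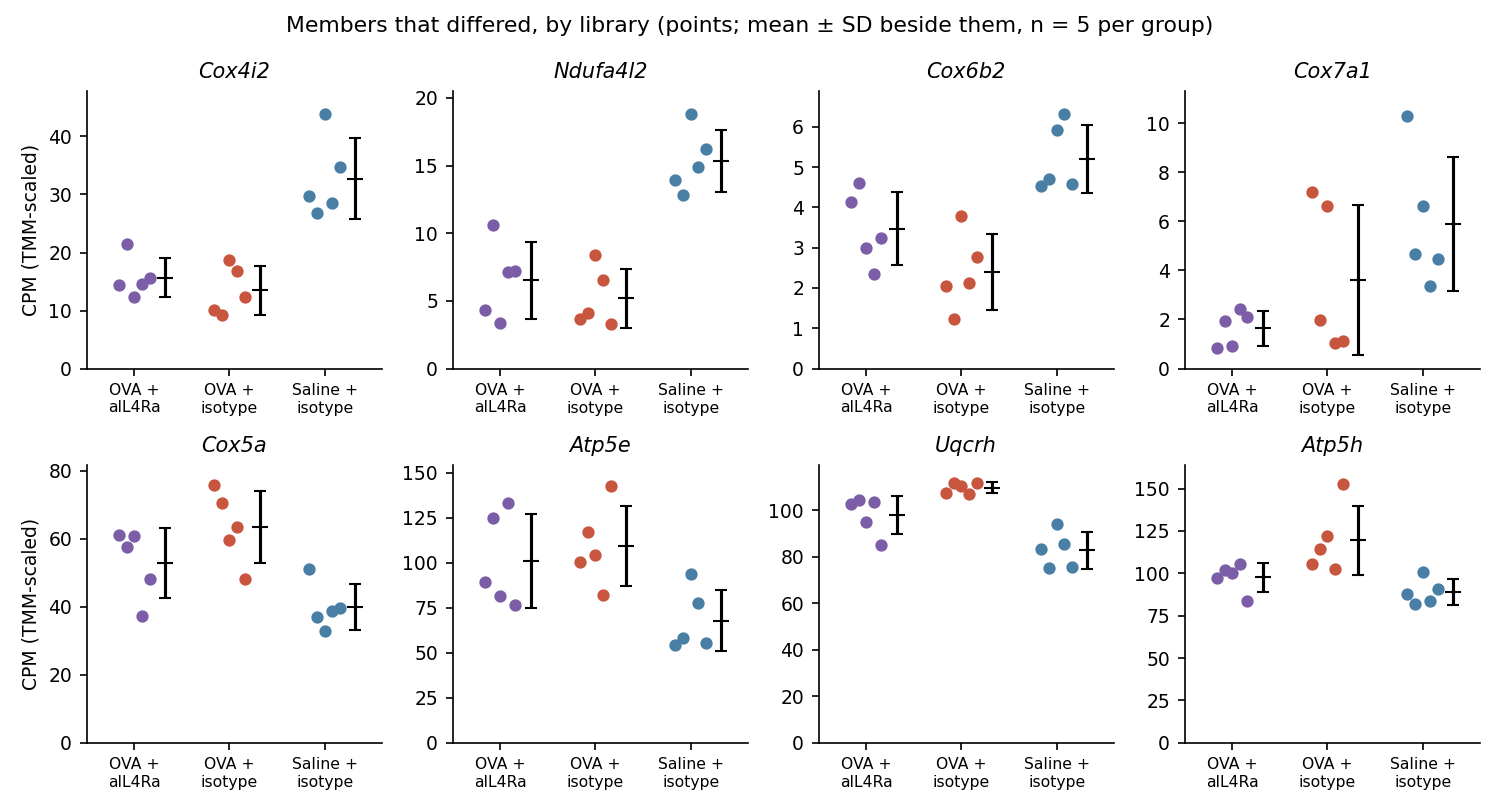
CPM of 8 members in each library (points), with mean ± SD beside them (n = 5 per group), for OVA + aIL4Ra, OVA + isotype and saline + isotype lungs from left to right. In the upper row Cox4i2, Ndufa4l2 and Cox6b2 lie lower in all OVA + isotype libraries than in all saline + isotype libraries and Cox7a1 spreads widely with OVA + isotype; in the lower row Uqcrh and Atp5h lie higher in all OVA + isotype libraries.

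Among the common subunits of complex IV, Cox5a was called and went up. Cox5a, a matrix-side subunit, had 75.7, 70.4, 59.5, 63.5 and 48.3 CPM in OVA + isotype lungs, against 50.97, 37.05, 32.8, 38.7 and 39.8 CPM in saline + isotype lungs and rose 1.59-fold (0.67 ± 0.16, adjusted p = 0.00421). Its groups overlapped only through OVA + isotype replicate 5 and saline + isotype replicate 1, and the call remained without each library in turn. Cox4i1, the common isoform of subunit 4, had 171.2, 190.9, 208.2, 175.3 and 146.2 CPM in OVA + isotype lungs, against 178.5, 147.9, 179, 152.8 and 151.1 CPM in saline + isotype lungs (0.14 ± 0.13, adjusted p = 0.431). Ndufa4, the common partner of Ndufa4l2, gave -0.24 ± 0.19 (adjusted p = 0.342). Cox5b, Cox6a1, Cox6b1, Cox6c, Cox7c and Cox8a gave -0.11 ± 0.16, -0.38 ± 0.20, -0.26 ± 0.17, 0.02 ± 0.17, -0.03 ± 0.16 and -0.47 ± 0.21, and none was called. Cox7a2l, whose protein is known to join complexes III and IV into supercomplexes, gave -0.04 ± 0.11 (adjusted p = 0.78). Without OVA + isotype replicate 3, Cox8a (-0.66, adjusted p = 0.0261) and Cox7a2 (-0.54, adjusted p = 0.0466) were called lower.

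Cox7a1, the isoform of heart and skeletal muscle and brown fat, was highest in the libraries with the most cardiac RNA. It had 0.826, 1.93, 0.932, 2.42 and 2.102 CPM in OVA + aIL4Ra lungs, 7.2, 1.98, 6.62, 1.03 and 1.13 CPM in OVA + isotype lungs and 10.3, 4.65, 6.61, 3.38 and 4.46 CPM in saline + isotype lungs. The highest of all 15 libraries was saline + isotype replicate 1, followed by OVA + isotype replicates 1 and 3, and these also held the most cardiac RNA (2394, 1623 and 2101 summed CPM). Saline + isotype replicate 1 also held the most adipose RNA, while OVA + aIL4Ra replicate 4, with the second most, had 2.42 CPM of Cox7a1. Cox7a1 was not called in OVA + isotype against saline + isotype lungs (-0.70 ± 0.51, adjusted p = 0.29). Without these 3 libraries, a setting chosen after seeing the data, it was called lower (-1.79, adjusted p = 0.00966 in edgeR). That setting leaves out the libraries highest in Cox7a1 itself, OVA + isotype replicates 1 and 3 among them. It lowers the OVA + isotype values by its choice and cannot show a fall. Myh6, the cardiac myosin heavy chain, had 16.5, 7.09, 173.6, 139.8 and 284.8 CPM in OVA + aIL4Ra lungs, 853, 306.8, 1102, 267.8 and 59.0 CPM in OVA + isotype lungs and 1284, 302.9, 545.5, 492.4 and 405.2 CPM in saline + isotype lungs.

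**Figure D3:**
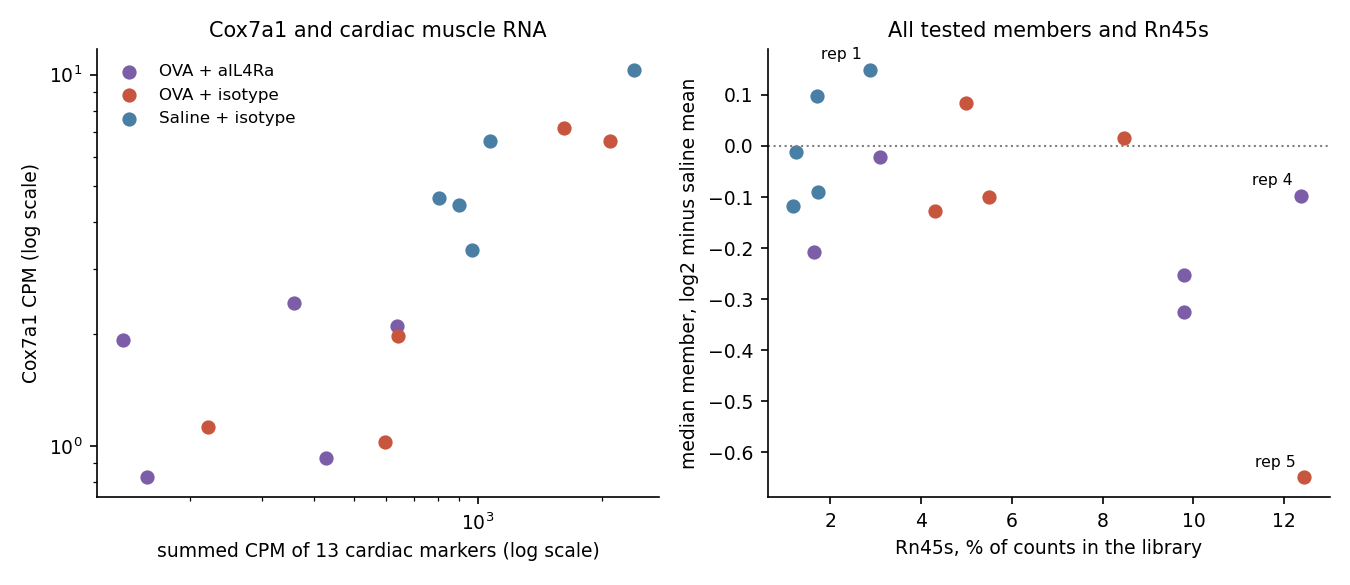
Left, CPM of Cox7a1 against the summed CPM of 13 cardiac muscle markers in each library, both on log axes; right, the median member (log2, minus the saline mean) against the Rn45s share of each library. The 3 libraries with the most cardiac RNA have the highest Cox7a1, and OVA + isotype replicate 5 stands lowest in the right panel at -0.65.

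Ratios of isoforms within a library do not depend on library totals, and 4 pairs were compared in the 3 comparisons by a two-sided exact permutation test (12 tests, Benjamini-Hochberg adjusted, smallest possible p = 0.00794). The log2 ratio of Cox4i2 to Cox4i1 averaged -3.77 ± 0.43 in OVA + isotype lungs and -2.32 ± 0.24 in saline + isotype lungs (SD, n = 5 each), a difference of -1.45 ± 0.22 (SE, exact permutation p = 0.00794, adjusted p = 0.0238). The ratio of Ndufa4l2 to Ndufa4 averaged -3.41 ± 0.58 in OVA + isotype lungs and -2.06 ± 0.26 in saline + isotype lungs (SD, n = 5 each), a difference of -1.35 ± 0.29 (SE, exact permutation p = 0.00794, adjusted p = 0.0238). In both pairs the lung-enriched or hypoxia-linked isoform was lower against its common partner in 5 of 5 OVA libraries than in any saline library. In OVA + aIL4Ra against saline + isotype lungs the differences were -1.19 ± 0.23 and -1.02 ± 0.25 (exact permutation, adjusted p = 0.0238 each), with the same saline libraries. These ratios use the same counts as the falls of Cox4i2 and Ndufa4l2 and are not separate evidence. In whole lung, a ratio cannot tell a change within cells from a change in which cells are present. Cox7a1 against Cox7a2 differed by -0.62 ± 0.59 between OVA + isotype and saline + isotype lungs (exact permutation, adjusted p = 0.424) and by -1.37 ± 0.37 between OVA + aIL4Ra and saline + isotype lungs (adjusted p = 0.0382, exact permutation). The last lost its call with a pseudocount of 5 counts in place of 0.5 (-1.15, exact permutation adjusted p = 0.0571). It was also lost without OVA + aIL4Ra replicate 1 or 3 or saline + isotype replicate 1, 2, 3 or 5 (-1.60 to -1.16 without single libraries). Atp5g1 against Atp5g3, which encode the same mature subunit c, gave -0.40 ± 0.24 and -0.41 ± 0.26 in these comparisons, and neither was called (exact permutation, adjusted p = 0.27 and 0.314).

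**Figure D4:**
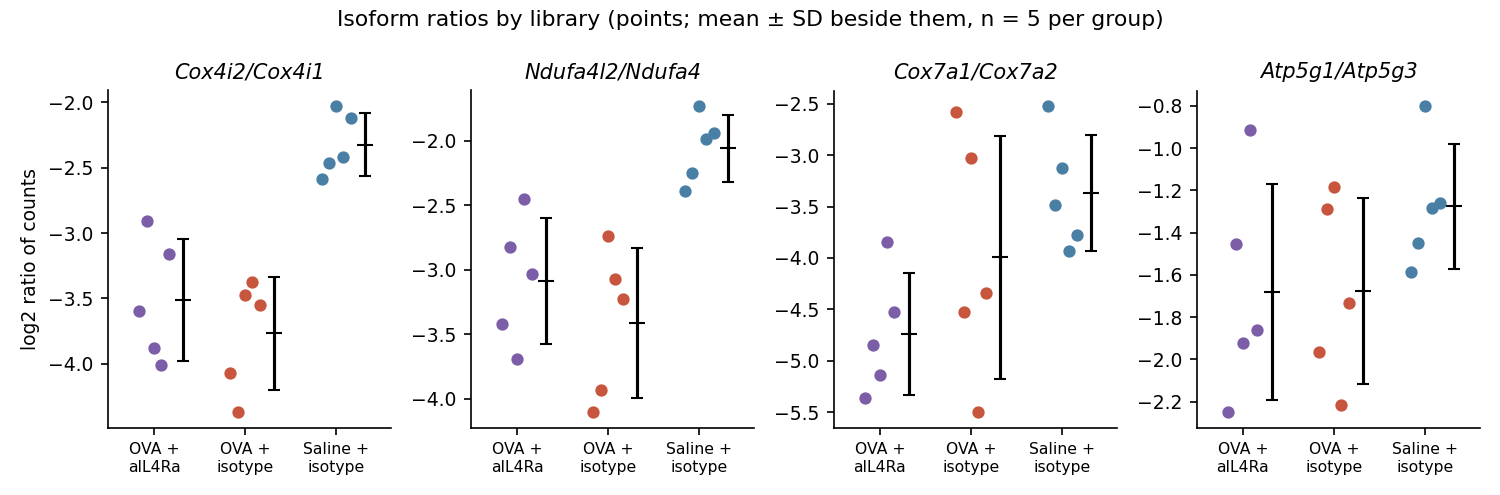
Log2 ratio of counts within a library for 4 isoform pairs, with a point for each library and mean ± SD beside the points (n = 5 per group), for OVA + aIL4Ra, OVA + isotype and saline + isotype lungs from left to right. For Cox4i2/Cox4i1 and Ndufa4l2/Ndufa4 all OVA libraries, with or without aIL4Ra, lie below all saline libraries; for Cox7a1/Cox7a2 and Atp5g1/Atp5g3 they overlap.

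Complex V had called members in its central and peripheral stalks but not in its catalytic head. Atp5e, the epsilon subunit of the central stalk, had 100.6, 117.1, 104.3, 81.8 and 142.4 CPM in OVA + isotype lungs, against 54.5, 58.3, 93.5, 77.3 and 55.5 CPM in saline + isotype lungs. It rose 1.61-fold (0.69 ± 0.20, adjusted p = 0.0136), the largest rise among the members, and its groups overlapped through OVA + isotype replicate 4 and saline + isotype replicate 3. Atp5h, subunit d of the peripheral stalk, had 105.4, 114.2, 122.1, 102.7 and 152.7 CPM in OVA + isotype lungs, against 87.6, 81.6, 100.9, 83.7 and 90.5 CPM in saline + isotype lungs. All OVA + isotype libraries lay above all saline + isotype libraries, OVA + isotype replicate 5 was the highest, and the rise was 1.34-fold (0.43 ± 0.11, adjusted p = 0.00921). Both calls remained without each library in turn, and with the Rn45s share as a covariate the values were 0.40 ± 0.28 for Atp5e and 0.20 ± 0.15 for Atp5h (adjusted p = 0.391 and 0.415). Atp5a1 and Atp5b, the alpha and catalytic beta subunits, gave 0.16 ± 0.12 and -0.12 ± 0.16 (adjusted p = 0.309 and 0.595). Atp5c1, Atp5d and Atp5o, subunits of the stalks, gave 0.05 ± 0.12, -0.31 ± 0.17 and -0.18 ± 0.18, and Atp5d was called lower without OVA + isotype replicate 3 (-0.47, adjusted p = 0.0404). Atp5g1, Atp5g2 and Atp5g3, which each encode subunit c of the membrane ring, gave -0.20 ± 0.23, -0.02 ± 0.16 and 0.18 ± 0.23. Atp5s, coupling factor B and not a structural subunit, gave -0.56 ± 0.29 (adjusted p = 0.14).

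Atp5sl, the complex I assembly factor that shares the symbol's start, had 20.5, 29.02, 17.8, 16 and 19.4 CPM in OVA + isotype lungs, against 13.7, 12.8, 16.1, 17.2 and 15.3 CPM in saline + isotype lungs. It rose 1.37-fold (0.45 ± 0.15, adjusted p = 0.0316), with overlap between the groups. The call was lost without OVA + aIL4Ra replicate 1 or 2, OVA + isotype replicate 1 or 2, or saline + isotype replicate 1, 2 or 5 (0.29 to 0.46, adjusted p = 0.0529 to 0.11). With the Rn45s share as a covariate it was 0.17 ± 0.21 (adjusted p = 0.639).

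The comparison of OVA + aIL4Ra with OVA + isotype lungs asks what the antibody changes in the allergic lung. None of the 81 members was called by edgeR, where 0.302% of all genes tested were called. DESeq2 and limma-voom also called 0 members, and at an unadjusted p under 0.05 there were 0 higher and 3 lower members, against 2.77% and 2.91% of all genes. The median log2 fold change was -0.05 (all genes -0.00), and by complex it ran from -0.10 in complex II to -0.03 in complexes I, III and IV, with 23 members positive and 58 negative. This direction turned with the cardiac score as a covariate, where the members' median was 0.10 (all genes 0.01) and 21 members were negative. It also turned without the 3 libraries richest in cardiac RNA (median 0.04). Among the 53 named members, 39 were negative and 13 positive with all libraries. Without OVA + isotype replicate 3 alone they were 24 and 29, and without OVA + aIL4Ra replicate 1 alone 28 and 25. Without OVA + isotype replicate 5 they were 46 and 7, so the direction depended on single libraries. Cardiac markers moved in the same comparison: 0 of 13 were called, 12 were negative, 10 of them lower at an unadjusted p under 0.05, and the list's median was -1.91. The 95% interval lay between -1 and 1 for 78 of 81 members (96.3%, against 84% of all genes), and the other members were Cox6b2, Cox7a1 and Ndufs5.

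The 3 members at an unadjusted p under 0.05 were among those that rose in OVA + isotype lungs, and they were chosen for naming after their values were seen. This comparison shares the OVA + isotype libraries with the first. A member high in them by chance would rise there and fall here without any effect of the antibody. Ndufv2 had 55.8, 65.3, 54.5, 46.3 and 56.7 CPM in OVA + aIL4Ra lungs (-0.28 ± 0.11 against OVA + isotype, adjusted p = 0.627). Atp5h had 97.3, 102.1, 99.9, 105.7 and 83.5 CPM in OVA + aIL4Ra lungs (-0.29 ± 0.11, adjusted p = 0.673). Ndufb5 had 37.8, 37.05, 40.6, 37.6 and 36.5 CPM in OVA + aIL4Ra lungs (-0.20 ± 0.08, adjusted p = 0.695). Each overlapped with the OVA + isotype libraries given above. Uqcrh had 102.5, 104.3, 94.9, 103.6 and 84.9 CPM in OVA + aIL4Ra lungs, all below the OVA + isotype libraries (-0.16 ± 0.09, adjusted p = 1), and Ndufs1 had 80.6, 72.99, 77.6, 59.4 and 71.3 CPM in OVA + aIL4Ra lungs, also without overlap (-0.27 ± 0.14, adjusted p = 1). Over all genes 0.509% were higher and 0.66% lower without overlap. Ndufa4l2 had 4.296, 10.6, 3.395, 7.13 and 7.21 CPM in OVA + aIL4Ra lungs, which overlapped with the OVA + isotype libraries (0.32 ± 0.30, adjusted p = 1). Cox4i2 had 14.4, 21.4, 12.4, 14.5 and 15.6 CPM in OVA + aIL4Ra lungs (0.21 ± 0.21, adjusted p = 1), and all 5 values lay below the saline + isotype range. Cox6b2 had 4.13, 4.61, 2.996, 2.35 and 3.24 CPM in OVA + aIL4Ra lungs (0.53 ± 0.27, adjusted p = 0.974). The isoform ratios Cox4i2/Cox4i1 and Ndufa4l2/Ndufa4 differed by 0.26 ± 0.28 and 0.33 ± 0.34 between OVA + aIL4Ra and OVA + isotype lungs, and neither was called (exact permutation, adjusted p = 0.424 each). Cox7a1/Cox7a2 differed by -0.75 ± 0.59 (exact permutation, adjusted p = 0.369).

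In OVA + aIL4Ra against saline + isotype lungs, which share the saline libraries with the first comparison, 7 members were called, 1 higher and 6 lower, where 26.6% of all genes were called (13.9% higher and 12.7% lower). The members' median was -0.19 against 0.02 for all genes, with 62 members negative. With the cardiac score as a covariate it was -0.02 against 0.03 for all genes, with 42 members negative. Groups did not overlap for 0 members that were higher and 7 that were lower, against 9.53% and 10.3% of all genes. Ndufa4l2 (-1.23 ± 0.30, adjusted p = 0.00772) and Cox4i2 (-1.06 ± 0.21, adjusted p = 0.00244) fell without overlap, and their calls remained without each library in turn. Beside them 4 of 15 pericyte and smooth muscle markers fell, with summed CPM of that list from 993 to 1796 in OVA + aIL4Ra lungs and from 1536.4 to 1961.5 in saline + isotype lungs. Here too 11 of 12 endothelial and 7 of 8 alveolar type 1 markers fell, and 6 of 10 leukocyte genes rose. Cox7a1 fell 3.56-fold (-1.83 ± 0.53, adjusted p = 0.0197), also without overlap. Its call was lost without OVA + aIL4Ra replicate 1 or 3 or saline + isotype replicate 1 (-1.69 to -1.53, adjusted p = 0.0524 to 0.0572), and with the cardiac score as a covariate it was -0.54 ± 0.51 (adjusted p = 0.543). Beside it, 6 of 13 cardiac markers fell and the median of that list was -1.61. Atp5e had 88.99, 124.5, 81.6, 133 and 76.7 CPM in OVA + aIL4Ra lungs and was higher than in saline + isotype lungs (0.57 ± 0.20, adjusted p = 0.0429).

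The other calls of this comparison were in complex I. Ndufb4 had 16.5, 33.7, 16.7, 18.2 and 26.98 CPM in OVA + aIL4Ra lungs, against 36.5, 35.3, 38.7, 32.6 and 36.5 CPM in saline + isotype lungs (-0.68 ± 0.24, adjusted p = 0.0434), with OVA + aIL4Ra replicate 2 in the saline range. Ndufa12, of the matrix arm, had 19.9, 25.8, 22.8, 19.4 and 24.7 CPM in OVA + aIL4Ra lungs, against 43.1, 33.4, 31.2, 30.3 and 34.6 CPM in saline + isotype lungs (-0.61 ± 0.19, adjusted p = 0.0249). Ndufa11, of the membrane arm, had 12.3, 16.5, 13.1, 16.5 and 15.2 CPM in OVA + aIL4Ra lungs, against 20.3, 17.5, 25.6, 21.9 and 19.97 CPM in saline + isotype lungs (-0.52 ± 0.18, adjusted p = 0.0421). Ndufa12 and Ndufa11 did not overlap between the groups. Against the same saline libraries OVA + isotype gave -0.39 ± 0.19 and -0.42 ± 0.18 for them, not called, though without OVA + isotype replicate 3 that comparison called both (-0.54 and -0.60, adjusted p = 0.037 and 0.015) and without saline + isotype replicate 2 it called Ndufa11 (-0.52, adjusted p = 0.0498).

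These calls were lost without single libraries. That of Atp5e was lost without OVA + aIL4Ra replicate 1, 2 or 4, OVA + isotype replicate 1, 3 or 4, or saline + isotype replicate 1, 2 or 5 (0.43 to 0.59, adjusted p = 0.0504 to 0.121). That of Ndufb4 was lost without OVA + aIL4Ra replicate 1, 3 or 4, OVA + isotype replicate 1 or any 1 saline + isotype library (adjusted p = 0.0512 to 0.111). That of Ndufa11 was lost without OVA + aIL4Ra replicate 1, 3 or 5, OVA + isotype replicate 1 or saline + isotype replicate 1, 3, 4 or 5 (adjusted p = 0.0516 to 0.0993), and that of Ndufa12 without OVA + aIL4Ra replicate 1 or 3 or saline + isotype replicate 1 (adjusted p = 0.0512 to 0.0688). The count of called members was 16 (1 higher, 15 lower) without OVA + isotype replicate 5, 12 without OVA + aIL4Ra replicate 4, 4 without OVA + isotype replicate 1 or saline + isotype replicate 5, 3 without OVA + aIL4Ra replicate 3 or saline + isotype replicate 1, and 2 without OVA + aIL4Ra replicate 1. With the Rn45s share as a covariate it was 0, with calls for 322 higher and 51 lower genes among all 15905, and with the cardiac score it was 1, Cox4i2, where 922 were called higher and 650 lower. Some named members not called here were called in fits without 1 library. Called lower in such fits were Ndufs7, Ndufa7, Ndufa8, Ndufa9, Ndufv1, Sdha, Uqcrc2, Cox6b1, Cox7a2, Cox8a and Atp5d. Ndufs7 was called without OVA + aIL4Ra replicate 4, any of OVA + isotype replicates 3 to 5 or saline + isotype replicate 2. Called higher were Cox5a, Uqcrh and Sdhd. Cox5a was called without OVA + aIL4Ra replicate 4 or saline + isotype replicate 1, and Sdhd without OVA + aIL4Ra replicate 4. Uqcrh was called without OVA + aIL4Ra replicate 5 or saline + isotype replicate 3.

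Single libraries moved many members together. In OVA + isotype replicate 5 the median member lay 0.65 below the saline mean on the log2 scale, against -0.13 to 0.08 in the other OVA + isotype libraries, -0.32 to -0.02 in OVA + aIL4Ra lungs and -0.12 to 0.15 in saline + isotype lungs. By complex, that library was at -0.48 for complex I, -0.22 for complex II, -0.49 for complex III, -0.89 for complex IV and -0.71 for complex V, while Atp5e and Atp5h were at their highest there. It was the shallowest library (10042825 counts) and had the largest Rn45s share (12.4%); OVA + aIL4Ra replicate 4, with a like Rn45s share (12.4%), had a median of -0.10. Their part in the low values was not tested. Without OVA + isotype replicate 5, 12 members were called in OVA + isotype against saline + isotype lungs, 8 higher and 4 lower. Without the 3 libraries richest in cardiac RNA 12 were called, 4 higher and 8 lower.

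**Figure D5:**
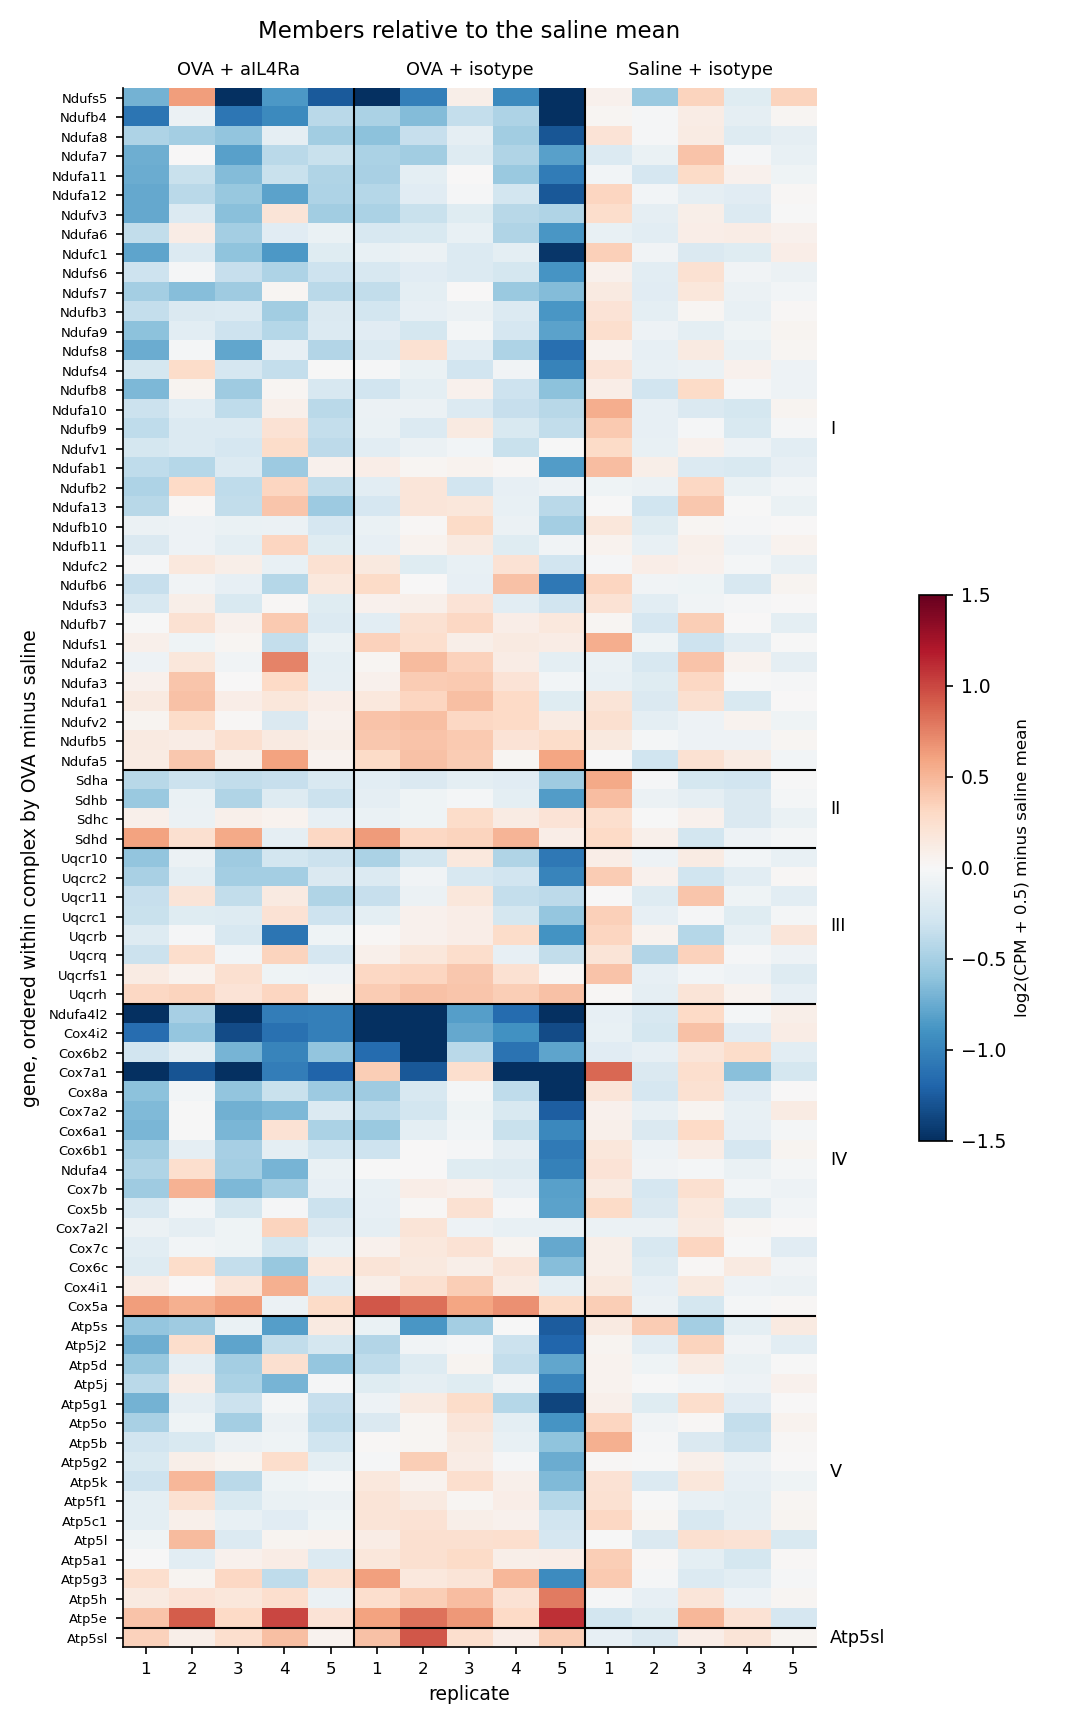
Tested members other than 1 complex I gene (rows, ordered within complexes by OVA + isotype minus saline + isotype) in each library (columns), as log2(CPM + 0.5) minus the mean of the saline + isotype libraries; the colour scale ends at -1.5 and 1.5. The column of OVA + isotype replicate 5 is mostly blue, and Ndufa4l2 and Cox4i2 are blue in all 10 OVA libraries.

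Other genes of mitochondrial energy supply were counted in lists. In OVA + isotype against saline + isotype lungs, 4 of 14 regulators of mitochondrial biogenesis rose (28.6%) and 0 fell, where 19.3% of all genes were called higher and 17.8% lower; the counts of the other lists stand beside the same shares. Ppargc1b and Ppargc1a, coactivators that drive respiratory chain genes, averaged 13.8 ± 3.11 and 18.5 ± 3.302 CPM in OVA + isotype lungs and 5.54 ± 1.38 and 9.12 ± 3.15 CPM in saline + isotype lungs (SD, n = 5 each). They rose by 1.31 ± 0.23 (adjusted p = 0.000708) and 1.02 ± 0.23 (adjusted p = 0.00298), both without overlap. Ssbp1 and Tfam, which bind mitochondrial DNA, rose by 0.57 ± 0.14 and 0.36 ± 0.12. In OVA + aIL4Ra lungs Ppargc1a averaged 10.4 ± 2.54 CPM, -0.84 ± 0.23 against OVA + isotype lungs (unadjusted p = 0.0021 and adjusted p = 0.246 in edgeR), and its libraries did not overlap. Perm1, a regulator known from striated muscle, averaged 3.10 ± 0.669 CPM in OVA + aIL4Ra lungs and 5.71 ± 1.47 CPM in OVA + isotype lungs (SD, n = 5 each), -0.88 ± 0.25 in edgeR (unadjusted p = 0.00302, adjusted p = 0.319), also without overlap. Of the 14 regulators 2 were lower without overlap, against 0.66% of all genes. The rise and the fall of Ppargc1a share the OVA + isotype libraries, and a gene high in them by chance would show both. The cardiac markers, with a median of -1.91 and 12 of 13 negative in OVA + aIL4Ra against OVA + isotype lungs, moved with Ppargc1a and Perm1. Their part was not tested. Ppargc1b averaged 10.2 ± 2.96 CPM there (-0.44 ± 0.23 against OVA + isotype, adjusted p = 1) and was called higher against saline + isotype lungs (0.87 ± 0.23, adjusted p = 0.0127).

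The 8 chain genes outside the symbol rule, Cyc1 and Cycs among them, held 0 called members in OVA + isotype against saline + isotype lungs (median -0.13). Of 14 complex I assembly factors Timmdc1 (0.40 ± 0.14) and Ndufaf7 (0.30 ± 0.11) rose. Of 29 assembly factors of complexes II to V, Cox16 rose (0.51 ± 0.19) and Uqcc1 (-0.48 ± 0.11), Surf1 (-0.45 ± 0.11) and Coa3 (-0.43 ± 0.12) fell. In the tricarboxylic acid cycle, which feeds the chain, 3 of 16 genes (18.8%) fell, near the 17.8% of all genes: Idh3g (-0.54 ± 0.16), Suclg1 (-0.40 ± 0.14) and Suclg2 (-0.38 ± 0.13). Of 77 mitochondrial ribosomal protein genes 6 rose and 4 fell, led by Mrpl18 (0.56 ± 0.12) and Mrpl14 (-0.92 ± 0.24). Of 18 glycolytic genes Pgk1 (0.73 ± 0.12) and Ldha (0.43 ± 0.13) rose and Pfkm fell (-0.58 ± 0.21). Hypoxia-induced genes went both ways, with 5 of 13 higher, such as Egln3 (1.88 ± 0.41) and Ddit4 (0.81 ± 0.23), and 6 lower, such as Adm (-1.30 ± 0.19) and Vegfa (-0.89 ± 0.20). Pgk1, Ldha and Slc2a1 stand in both the glycolytic and the hypoxia list, and Pgk1 and Ldha are among the 5 higher genes. In OVA + aIL4Ra against OVA + isotype lungs 0 genes of these lists were called.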

How the data were processed

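Whole-lung RNA of 15 mice was sequenced, 5 in each of 3 groups. Estimated counts per gene symbol were deposited by the authors, unnormalized, in 1 table. RSEM 1.2.15, Bowtie2 2.1.0 and the genome build hg38 are named in the submitters' processing notes. The symbols in the table are those of mouse genes, and the build the reads were aligned to was not settled here. Per the labels' protocols, libraries were strand-specific, and both ribosomal RNA depletion and oligo-dT beads are named. Between 17 and 20% of the values were not whole (beyond 0.005) and were rounded.

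The counts were fitted with edgeR 4.0.16 (R 4.3.3), quasi-likelihood, in 1 fit of all 15 libraries with TMM scaling and edgeR's filter on low counts, which kept 15905 of 24054 symbols; p-values were adjusted over these. CPM used TMM-scaled totals. Log2 isoform ratios used a pseudocount of 0.5 counts and exact permutation tests. Depths of 10042825 to 27570666 counts limit precision most for members at a few CPM. Intervals of log2 fold changes come from the edgeR fit and include the spread between animals, while the floors at 0 counts cover counting error only. Members at 0 counts were below 3 counts per library, which is 0.17 to 0.248 CPM with OVA + aIL4Ra, 0.203 to 0.308 CPM with OVA + isotype and 0.113 to 0.183 CPM with saline + isotype. Nothing says how tissue or library batches were arranged, and p-values measure the spread between these animals. The scripts were tested on simulated data.

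Alternatives were RLE scaling, library totals alone, no filter, DESeq2 1.42.0, limma-voom 3.58.1, the 2 compared groups alone, the Rn45s share or a cardiac marker score as a covariate, a replicate block, leaving out each library and, chosen after seeing the data, leaving out the 3 libraries richest in cardiac RNA. Members named were fixed by role, with up to 3 called members per complex and direction added. The members and gene lists were chosen with earlier results of these data known. Non-member genes come from those lists. Values of 1 complex I member, which entered the fits and counts, are not reported here.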

Additional observations from a re-analysis of the deposited data

Results flagged for a closer look

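Among 186 groups of 5 libraries tested for a single library far from the other 4, 20 were flagged (gap over range above 0.71), where chance flags about 1 in 20 groups. Members of 1 library are not independent, and most flags fell on 3 libraries.

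In OVA + isotype replicate 5 the flagged members were low. Cox6c had 68.81 CPM, against 114.9 to 123.4 CPM in the other OVA + isotype libraries. Cox7c had 33.12 CPM, against 58.54 to 65.79 CPM. Ndufa4 had 31.18 CPM, against 55.4 to 63.66 CPM, and Uqcrb had 24.92 CPM, against 47.74 to 56.83 CPM. In complex II, Sdha had 123.4 CPM, against 153.4 to 161.5 CPM, and Sdhb had 29.95 CPM, against 48.83 to 52.96 CPM. Cox7a2l was high in OVA + isotype replicate 2, at 135.5 CPM.

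In OVA + aIL4Ra replicate 4, which had the second most adipose RNA (725 summed CPM), the members went both ways. Cox7a2l had 148.7 CPM, Ndufv1 had 81.01 CPM, Uqcrc1 had 99.79 CPM and Ndufa8 had 29.61 CPM, each above the other OVA + aIL4Ra libraries. Uqcrb was low there, at 21.73 CPM against 39.68 to 46.28 CPM.

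In saline + isotype replicate 1 flagged members were high. This library had the most cardiac RNA (2394 summed CPM of 13 markers) and the most adipose RNA (1780.4 summed CPM, against 6.92 to 286.3 in the other saline + isotype libraries). Sdha had 265.1 CPM, Sdhb had 74.26 CPM and the summed CPM of complex II was 484.9, against 300.2 to 349.6 in the other saline + isotype libraries. Uqcrc1 had 110.1 CPM, Uqcrfs1 had 73.47 CPM, Atp5g3 had 100.6 CPM and Ndufa4 had 73.32 CPM. The part of cardiac and adipose RNA in these values was not tested. Ndufa7 was high in saline + isotype replicate 3, at 57.64 CPM.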

How the results depend on the processing

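Called members numbered 13 in OVA + isotype against saline + isotype lungs, and 9 to 17 under other scalings, no filter, DESeq2, limma-voom, the 2 groups alone, the cardiac score and a replicate block. With library totals alone there were 14, 9 higher and 5 lower. The Rn45s share as a covariate left 0, and leaving out single libraries gave 9 to 25. In OVA + aIL4Ra against OVA + isotype lungs the count was 0 under every alternative run. In OVA + aIL4Ra against saline + isotype lungs it was 7; it was 12 with DESeq2, 13 with the 2 groups alone, 0 with the Rn45s share, 1 with the cardiac score, 2 with a replicate block, 4 without the 3 libraries richest in cardiac RNA and 2 to 16 without single libraries. With library totals alone it was 6, 2 higher and 4 lower. The cause of these moves was not tested. No called member changed sign under any alternative. In OVA + aIL4Ra against OVA + isotype lungs none was called, and 25 of 53 named members changed sign with the cardiac score. Without OVA + isotype replicate 3 alone, 16 changed sign. The Cox7a1/Cox7a2 ratio in OVA + aIL4Ra against saline + isotype lungs (-1.37) was no longer called with a pseudocount of 5 counts (-1.15), and without single libraries it ran from -1.60 to -1.16, with the call lost in 6 of 10 (without OVA + aIL4Ra replicate 1 or 3 or saline + isotype replicate 1, 2, 3 or 5). The other ratios kept their calls without single libraries: Cox4i2/Cox4i1 ran from -1.54 to -1.29 with OVA + isotype and from -1.34 to -1.06 with OVA + aIL4Ra, each against saline + isotype, and Ndufa4l2/Ndufa4 from -1.52 to -1.18 and from -1.18 to -0.87. Replicate numbers are shared by the groups, and nothing says that they pair the animals. Correlations of same-numbered libraries ran from -0.584 to 0.365, and in 2 of 30 comparisons with another group a library was closest to its own number. Such values cannot exclude a shared batch. With the replicate block the ratio differences (-1.45 and -1.19 for Cox4i2/Cox4i1, -1.35 and -1.02 for Ndufa4l2/Ndufa4, -1.37 for Cox7a1/Cox7a2) were not called, since an exact sign-flip test of 5 pairs cannot go low enough. Depth limits members at a few CPM, such as Cox7a1 and Cox6b2.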
